A study of Homo sapiens with 12 samples.

Results

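The genes described here are 10 components of transforming growth factor beta (TGF-beta) and bone morphogenetic protein (BMP) signalling. They are the ligands TGFB1, TGFB3 and GDF11, the receptor BMPR1A, the signal carriers SMAD1, SMAD2, SMAD3, SMAD4 and SMAD5, and the repressor TGIF1. They were taken by gene symbol, and 9 of the 10 were found among the 19038 transcripts of the RNA table, with 1 transcript each. TGFB1 was not analysed here. The set was selected on measured values: TGFB3, SMAD1 and TGIF1 had more RNA after treatment, and GDF11 had more ribosome footprints relative to its RNA. Those values are descriptions. The fit over all genes also made calls on them, and these are counted below without being read as support.

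The material was 22Rv1, an established human prostate cancer cell line, grown as tumours under the skin of male NSG mice that were 6 to 8 weeks old when the cells were injected. NSG mice lack T, B and natural killer cells but keep their own fibroblasts, vessels and myeloid cells, so a tumour also holds mouse tissue. The treated mice received zotatifin, an inhibitor of the RNA helicase eIF4A, into the peritoneum at 0.3 mg/kg in 5% dextrose, the control mice received the dextrose alone (vehicle), and tumours were taken at 6 h. Ribosome footprints, the short stretches of mRNA that a ribosome protects from nuclease, and total RNA were sequenced from the same lysates, giving 4 groups of 3 libraries (12 in all). The titles call the replicates biological, 1 line was used at 1 dose and 1 time, and the p-values within each assay measure the spread between these tumours. The main test of footprints relative to RNA treats the 12 libraries as independent, although both assays used the same lysates.

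Ligands of this family bind pairs of type II and type I receptors on the cell surface, and the type I receptor then phosphorylates a receptor-activated SMAD. TGF-beta, activin and GDF11 signal through SMAD2 and SMAD3, BMPs through SMAD1, SMAD5 and SMAD9, and both branches need SMAD4 to form the complex that enters the nucleus. In prostate epithelium TGF-beta is known for restraining growth, and in tumours for acting on stroma and immune cells. The SMAD2 and SMAD3 complexes recruit TGIF1, a homeodomain protein that represses their target genes.

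The windows upstream of the start sites are shown for the 4 genes that prompted the choice, because 3 of them differed in RNA and GDF11 did not follow them. The windows come from RefSeq on GRCh38.p14, and capitals mark matches to 5 motifs on either strand. The motif GGGCGG is known as the box bound by Sp factors (called a GC box below). The motif CAGAC is the box bound by SMAD proteins. The motif TATAAA is the core promoter element near many start sites. The motif ACGTCA is the core of the element through which cyclic AMP acts. The motif TGANTCA is the site of AP-1 factors. All of the 9 genes that were found matched an entry. The first is the 250 bases before the only listed GDF11 start, chr12:55742872-55743121 on the plus strand, with TATAAA beginning 33 bases upstream.
GDF11: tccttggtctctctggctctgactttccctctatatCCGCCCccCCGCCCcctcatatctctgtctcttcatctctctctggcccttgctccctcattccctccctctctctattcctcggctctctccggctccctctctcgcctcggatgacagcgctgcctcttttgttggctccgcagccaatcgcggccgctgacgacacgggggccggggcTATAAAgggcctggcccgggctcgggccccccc
The window before the first of 2 TGFB3 starts, chr14:75983012-75983261 on the minus strand, holds 2 SMAD boxes and no GC box.
TGFB3: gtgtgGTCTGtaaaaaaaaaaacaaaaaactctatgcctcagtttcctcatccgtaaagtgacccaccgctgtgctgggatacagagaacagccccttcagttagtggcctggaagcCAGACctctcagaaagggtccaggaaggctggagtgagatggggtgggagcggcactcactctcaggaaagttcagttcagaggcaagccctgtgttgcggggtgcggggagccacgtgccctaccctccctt
The window before the first of 7 TGIF1 starts, chr18:3411759-3412008 on the plus strand, holds 2 GC boxes and 2 SMAD boxes.
TGIF1: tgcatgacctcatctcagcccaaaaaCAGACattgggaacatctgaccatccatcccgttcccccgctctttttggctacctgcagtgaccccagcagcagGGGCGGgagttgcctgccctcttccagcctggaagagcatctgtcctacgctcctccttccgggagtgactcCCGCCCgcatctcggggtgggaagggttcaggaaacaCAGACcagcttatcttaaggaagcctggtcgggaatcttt
For the second TGFB3 start and the first of 5 SMAD1 starts only 30 bases around a match are given, chr14:75982017-75982046 on the minus strand and chr4:145481251-145481280 on the plus strand.
TGFB3 second start: agagACGTCAtgggagggaggTATAAAatt
SMAD1: acgcatctgtTGACTCAgggtttgtataac
The ACGTCA before the second TGFB3 start begins 47 bases upstream and its TATAAA 30 bases upstream, and the TGANTCA match of SMAD1 begins 45 bases upstream. Over 35116 RefSeq windows of the same length, a match was found to GGGCGG in 42.6%, to CAGAC in 38.0%, to TATAAA in 10.7%, to ACGTCA in 7.1% and to TGANTCA in 6.57%. With every listed start counted, TATAAA was found before 1 of 2 TGFB3 starts, the 1 GDF11 start, 1 of 7 TGIF1 starts and 1 of 5 SMAD1 starts. GGGCGG was found before 0 of 2, 1 of 1, 6 of 7 and 3 of 5. In the same order, CAGAC was found before 1, 0, 4 and 1 starts. ACGTCA was found before 1, 0, 0 and 0, and TGANTCA before 0, 0, 1 and 1. The TATAAA matches of TGIF1 and SMAD1 begin 152 and 225 bases upstream, farther than those of GDF11 and TGFB3. A match is a run of letters, and which start the counted transcript uses is not given in the sources used here.

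Total counts lay between 5761921 and 8153674 in the 6 RNA libraries, between 1592316 and 2013968 in the vehicle footprint libraries and between 838135 and 1540867 in the zotatifin footprint libraries, so footprint values of the treated tumours are the least precise. Levels are counts relative to library size after TMM scaling (CPM), given as mean ± SD over 3 libraries, and changes are log2 of zotatifin over vehicle ± standard error. Translational efficiency (TE) is the log2 ratio of footprint CPM to RNA CPM of the same tumour. A call is a Benjamini-Hochberg adjusted p under 0.05 over all genes in edgeR's quasi-likelihood test. Of 13118 genes tested for RNA, 1.72% were called, of 9544 tested for footprints 7.14%, and of 9454 tested for TE 2.04%. The 10 prostate epithelial markers listed for 22Rv1 were all detected in both assays, with summed RNA of 4310 to 5220 CPM in vehicle and 5020 to 5460 CPM in zotatifin tumours and summed footprints of 4070 to 5360 CPM and 5360 to 6190 CPM. In RNA 0 of these 10 were called, FOXA1 and KRT18 were among those that rose in footprints, FOXA1 rose in TE, and their part in the results below was not tested.

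The number of genes called depended on which tumours were fitted. RNA calls numbered 225 with all 6 libraries. Setting aside vehicle library 1 left 11 RNA calls, vehicle 2 gave 396, vehicle 3 left 25, zotatifin 1 left 56 and zotatifin 3 left 48. Footprint calls numbered 681, and 185, 415 and 438 when vehicle 1, vehicle 3 or zotatifin 1 was set aside. TE calls numbered 193, and 63, 91, 60, 65 and 113 when vehicle tumour 1, 2 or 3 or zotatifin tumour 1 or 3 was set aside. With the tumour as a block, 864 genes were called for TE.

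Among the 9 genes, 3 of 9 were called in RNA (TGFB3, TGIF1 and SMAD1, all higher), where 0.808% of all genes tested were called higher. In footprints 1 of 7 was called (GDF11, higher), where 3.22% of genes were called higher and 3.92% lower. In TE 2 of 7 were called, GDF11 higher and SMAD1 lower, where 0.444% of genes were called higher and 1.6% lower. These calls are the values by which the genes were chosen or share their RNA libraries, and nothing is read from the shares. TGFB3 and SMAD3 had too few footprints to pass the filter on low counts. The median log2 change was 0.31 in RNA over the 9 genes, −0.01 in footprints and −0.43 in TE over the 7 that passed, against 0, 0 and −0.01 over all genes tested. Without the genes chosen by RNA the RNA median was 0.04 (6 genes), and without all 4 chosen genes the TE median was −0.33 (4 genes).

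**Figure D1:**
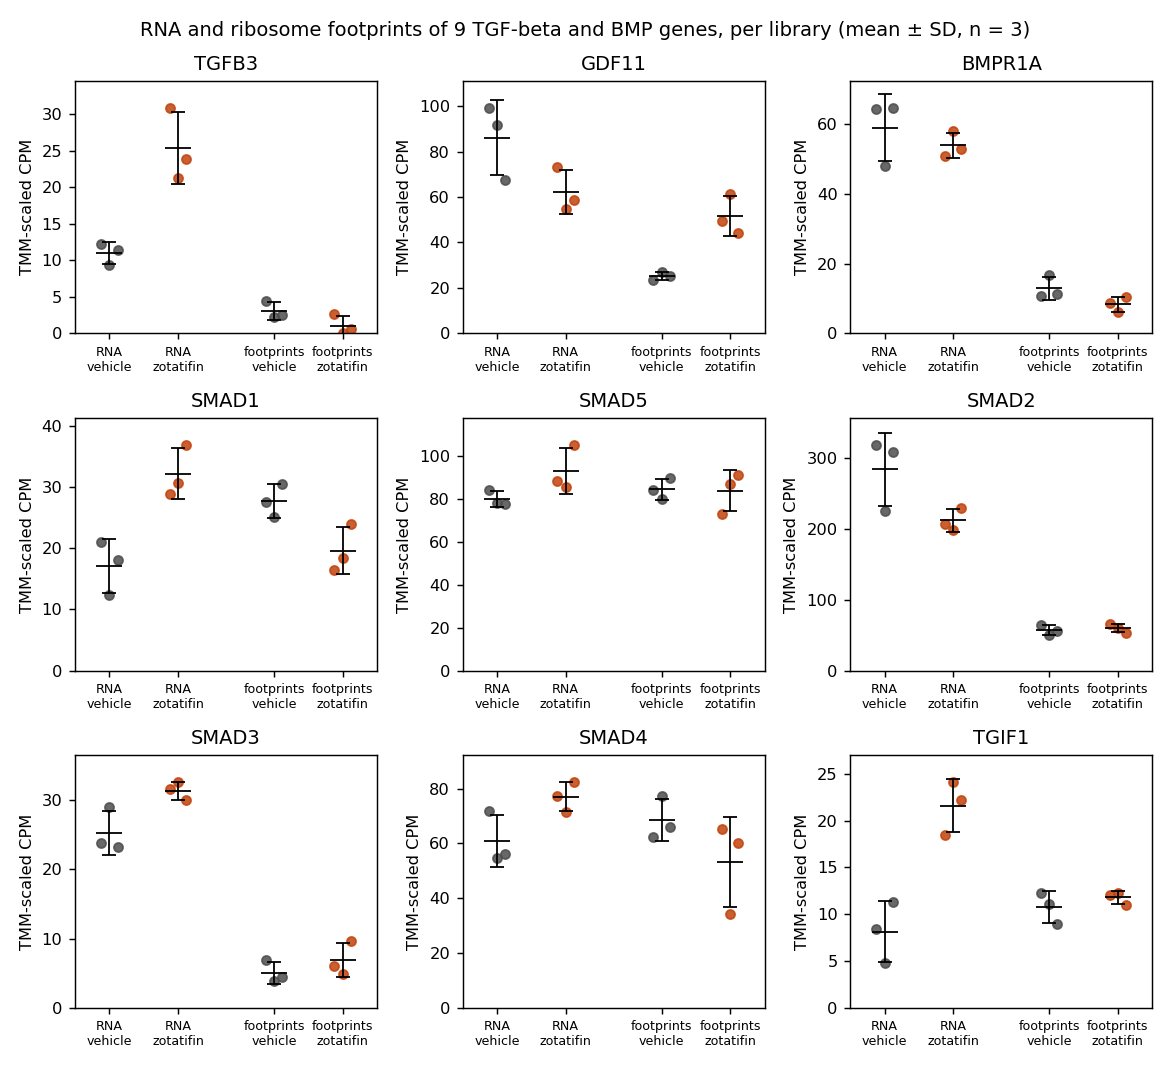
RNA and footprint levels of the 9 genes, in TMM-scaled CPM on an axis that starts at 0, with 1 point per library, a bar at the mean and whiskers of 1 SD (n = 3). TGFB3, SMAD1 and TGIF1 stand higher in RNA in all zotatifin tumours, where their footprints do not, and GDF11 stands higher in footprints at 44.0 to 61.3 CPM against 23.6 to 27.2 CPM.

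TGFB3 encodes a secreted TGF-beta ligand. It lies at chr14:75958097-75983011. Its RNA stood at 12.2, 9.33 and 11.4 CPM in vehicle tumours 1, 2 and 3 and at 30.8, 21.3 and 23.8 CPM in zotatifin tumours 1, 2 and 3. The means were 11 ± 1.5 and 25.3 ± 4.93 CPM, a log2 difference of 1.21 ± 0.20 or 2.31-fold, and every zotatifin tumour was above every vehicle tumour. Its footprints were few: 9, 4 and 4 counts in vehicle tumours and 3, 0 and 1 in zotatifin tumours. Per footprint sequenced, the pooled ratio of zotatifin to vehicle was 0.361, with a 95% exact interval of 0.0883 to 1.11 that covers counting error only. A change of footprints was not detectable at this depth. In the authors' deposited table, the TE estimate of TGFB3 is −2.64 on the log2 scale, with an FDR of 0.0054.

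GDF11 encodes a secreted ligand of the activin branch, close to myostatin. It lies at chr12:55743122-55757264 and overlaps SARNP, whose reads cannot be told apart from its own where strand was not used. GDF11 RNA was 99.1, 91.5 and 67.5 CPM in vehicle and 73.3, 54.7 and 58.6 CPM in zotatifin tumours. The difference of −0.46 ± 0.15 came with groups that overlap. Its footprints were 23.6, 27.2 and 25.4 CPM in vehicle tumours (48, 49 and 40 counts) and 49.5, 61.3 and 44.0 CPM in zotatifin tumours (57, 50 and 68 counts). Means were 25.4 ± 1.8 and 51.6 ± 8.86 CPM, a log2 difference of 0.99 ± 0.18 or 1.98-fold, and the lowest treated tumour exceeded the highest vehicle tumour. Its log2 TE was −2.07, −1.75 and −1.41 in vehicle and −0.567, 0.165 and −0.414 in zotatifin tumours, a difference of 1.46 ± 0.25. Among the 9454 genes its TE moved from the 12.4th to the 48.6th percentile. The authors' deposited table gives a smaller TE estimate of 0.90 for GDF11, with an FDR of 0.064.

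BMPR1A encodes a type I receptor for BMP2 and BMP4, at chr10:86755763-86932844. Its RNA was 64.2, 47.8 and 64.5 CPM in vehicle and 50.8, 57.8 and 52.9 CPM in zotatifin tumours, and the groups overlap. The log2 change of −0.13 ± 0.14 did not pass the test (adjusted p = 0.66). Footprints were 10.8, 16.7 and 11.4 CPM against 8.68, 6.13 and 10.3 CPM, so that every treated tumour lay below every vehicle tumour. That change of −0.56 ± 0.32 did not pass either (adjusted p = 0.32), on 70 and 31 footprint counts per group. BMPR1A had a low TE, at the 6.86th percentile in vehicle and the 2.87th in zotatifin tumours, and a TE difference of −0.43 ± 0.35 (adjusted p = 0.60).

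SMAD1 and SMAD5 carry the BMP signal. SMAD1 lies at chr4:145480770-145559176 beside 2 antisense genes, and SMAD5 at chr5:136132845-136182733 beside SMAD5-AS1. SMAD1 RNA was 21.0, 12.3 and 18.1 CPM in vehicle and 28.9, 30.7 and 36.8 CPM in zotatifin tumours. The means of 17.1 ± 4.43 and 32.1 ± 4.13 CPM differ by 0.91 ± 0.19 or 1.88-fold, with no overlap. SMAD1 footprints lay on the other side: 27.5, 25.0 and 30.5 CPM in vehicle tumours and 16.5, 18.4 and 23.9 CPM in zotatifin tumours. These groups do not overlap, and the change of −0.46 ± 0.22 did not pass the test (adjusted p = 0.22). SMAD1 log2 TE was 0.391, 1.02 and 0.754 in vehicle tumours and −0.81, −0.738 and −0.62 in zotatifin tumours, a difference of −1.37 ± 0.30. It moved from the 76.5th to the 34.1st percentile of TE. The authors' deposited table gives −1.33 for SMAD1, with an FDR of 1.7e-07. The TE call was lost without vehicle tumour 3 or zotatifin tumour 1, and the RNA call when vehicle 1, vehicle 3 or zotatifin 3 was set aside.

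SMAD5, the other BMP-branch SMAD measured in both assays, showed little of this. Its RNA was 84.1, 78.2 and 77.7 CPM in vehicle and 88.3, 85.5 and 105 CPM in zotatifin tumours, without overlap, and the change of 0.22 ± 0.12 did not pass (adjusted p = 0.37). SMAD5 footprints were 84.0, 79.9 and 89.6 CPM against 72.9, 87.1 and 91.2 CPM, a change of −0.01 ± 0.14 (adjusted p = 0.98). Its TE differed by −0.23 ± 0.18 (adjusted p = 0.60) and lay at the 58.3rd and 52.6th percentile. Whether SMAD1 and SMAD5 responded differently was not tested.

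SMAD2 and SMAD3 carry the TGF-beta, activin and GDF11 signal. SMAD2, at chr18:47808957-47930872, had RNA of 318, 225 and 309 CPM in vehicle and 207, 199 and 230 CPM in zotatifin tumours. The groups overlap, and the change of −0.42 ± 0.13 did not pass the test (adjusted p = 0.11). It passed with no low-count filter (adjusted p = 0.049) and without vehicle library 2 (−0.56, adjusted p = 0.033), and over all alternatives the adjusted p ran from 0.033 to 0.33. SMAD2 footprints were 64.9, 50.5 and 55.9 CPM against 65.1, 60.1 and 53.7 CPM, a change of 0.05 ± 0.16 (adjusted p = 0.89). Its log2 TE was higher in every zotatifin tumour, at −1.67, −1.73 and −2.10 against −2.29, −2.16 and −2.46, and the difference of 0.47 ± 0.21 did not pass (adjusted p = 0.27). In the authors' deposited table the SMAD2 TE estimate is 0.45, with an FDR of 0.011. SMAD2 stood among the genes of lowest TE in both groups, at the 5.97th and 10.3rd percentile.

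SMAD3, at chr15:67065602-67195169 beside SMAD3-AS1, had RNA of 23.8, 29.0 and 23.2 CPM in vehicle and 31.6, 32.6 and 30.0 CPM in zotatifin tumours. The groups do not overlap, and the change of 0.31 ± 0.16 did not pass the test (adjusted p = 0.30). SMAD3 footprints numbered 28 in vehicle and 26 in zotatifin tumours, a ratio per footprint sequenced of 1.42 with a 95% exact interval of 0.801 to 2.52.

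SMAD4, the partner shared by both branches, lies at chr18:51030213-51085042. Its RNA was 71.9, 54.5 and 56.2 CPM in vehicle and 77.4, 71.5 and 82.3 CPM in zotatifin tumours, overlapping by the first vehicle tumour, and the change of 0.34 ± 0.13 did not pass the test (adjusted p = 0.17). SMAD4 footprints were 62.4, 77.2 and 66.1 CPM against 65.1, 34.3 and 60.2 CPM, with tumour 2 the lowest of the treated, and a change of −0.31 ± 0.17 (adjusted p = 0.29). Its log2 TE was −0.203, 0.501 and 0.234 in vehicle and −0.25, −1.06 and −0.452 in zotatifin tumours, and every treated tumour lay below every vehicle tumour. The difference of −0.66 ± 0.23 did not pass (adjusted p = 0.13), but it passed with the tumour as a block (adjusted p = 0.012), and over all alternatives the adjusted p ran from 0.012 to 0.41. The authors' deposited table gives −0.65 for SMAD4 with an FDR of 9e-05.

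TGIF1, the repressor, lies at chr18:3412009-3459978. Its RNA was 8.39, 4.75 and 11.3 CPM in vehicle and 18.5, 24.1 and 22.2 CPM in zotatifin tumours. The means of 8.14 ± 3.27 and 21.6 ± 2.87 CPM differ by 1.39 ± 0.25 or 2.63-fold, with no overlap, and the RNA call was lost without vehicle library 1. TGIF1 footprints did not follow: 12.3, 11.1 and 8.9 CPM in vehicle tumours and 12.1, 12.3 and 11 CPM in zotatifin tumours. The groups overlap, and the change of 0.10 ± 0.30 did not pass the test (adjusted p = 0.88), on 59 and 41 counts. TGIF1 log2 TE was 0.55, 1.23 and −0.341 in vehicle and −0.607, −0.977 and −1.02 in zotatifin tumours, a difference of −1.28 ± 0.41, and its percentile went from 70.2 to 30.1. That difference was not called (adjusted p = 0.10) and was called with the tumour as a block (adjusted p = 0.018), with a range of 0.018 to 0.33 over all alternatives. The authors' deposited table gives −1.27 for TGIF1, with an FDR of 0.0011.

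**Figure D2:**
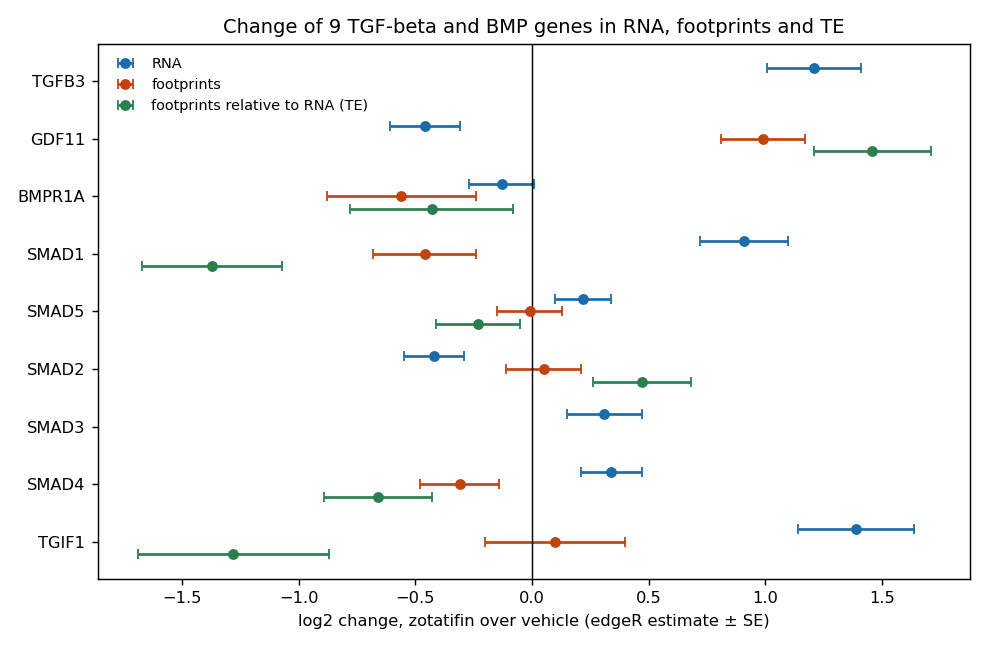
Log2 change of RNA, of footprints and of footprints relative to RNA (TE), zotatifin over vehicle, with bars of 1 standard error, for the genes that passed the filter. TGIF1 sits at 1.39 in RNA and 0.10 in footprints, SMAD1 at 0.91 and −0.46, and GDF11 at −0.46 and 0.99.

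In RNA, 5 of the 9 genes were higher in every zotatifin tumour (TGFB3, TGIF1, SMAD1, SMAD3 and SMAD5) and 0 were lower in every one, where 12.3% and 10.9% of all genes tested were. Of these 5, SMAD3 and SMAD5 were not chosen for their RNA. In footprints 1 of 7 was higher in every treated tumour (GDF11) and 2 were lower (SMAD1 and BMPR1A), against 12.9% and 13.5% of genes. In TE 2 of 7 were higher (GDF11 and SMAD2) and 3 were lower (TGIF1, SMAD1 and SMAD4), against 10.7% and 15.6%. GDF11 was chosen for its footprints relative to RNA, and TGIF1 and SMAD1 for their RNA. Of the genes listed for TE, only SMAD2 and SMAD4 were not chosen, and nothing is read from these shares. RNA and TE changes share the RNA libraries, so a high RNA value in a tumour lowers its TE.

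**Figure D3:**
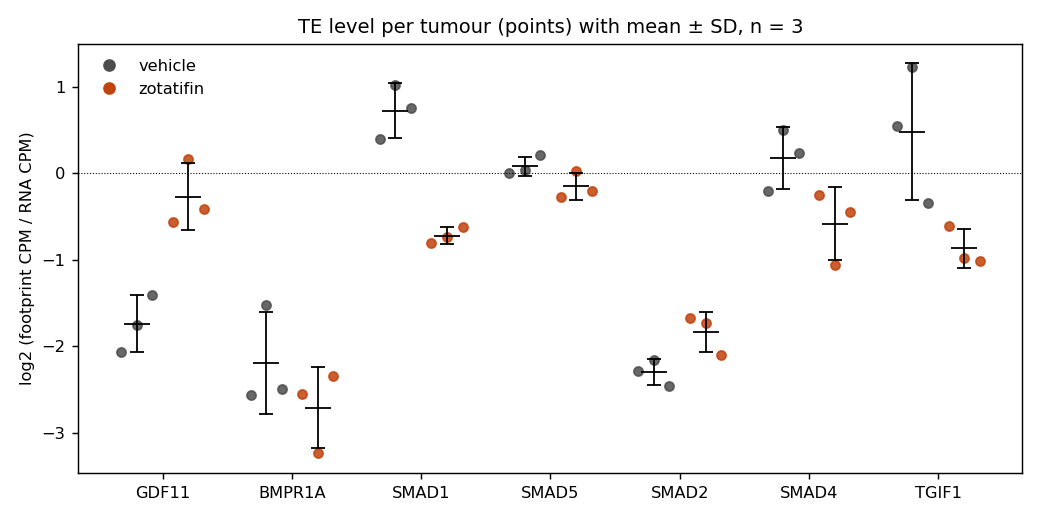
Log2 translational efficiency of the 7 genes measured in both assays, 1 point per tumour (3 vehicle, 3 zotatifin), with the mean of each group. GDF11 goes from a mean of −1.74 to −0.27, SMAD1 and TGIF1 go from 0.72 and 0.48 to −0.72 and −0.87, and SMAD2 and BMPR1A lie lowest in both groups.

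The rest of the pathway was counted over a list of 111 genes, of which 101 are not among the genes above. Of those 101, 80 were tested in RNA with edgeR, and 0 rose and 4 fell (8 higher and 11 lower at an unadjusted p under 0.05), where 0.907% of all genes were called lower. In footprints 49 were tested, and 0 rose and 4 fell (4 higher and 9 lower unadjusted), where 3.92% of all genes were called lower. In TE 0 of 49 were called (3 higher and 6 lower unadjusted), where 2.04% of all genes were called. Rises were called for 0.808% of all genes in RNA and 3.22% in footprints. DESeq2 gave 0 rises and 4 falls in RNA, 0 and 2 in footprints (STRAP and ID2), and 0 calls in TE. It tested 71 of these genes in RNA, 25 in footprints and 39 in TE. Over all genes fitted it called 153 higher and 174 lower of 18338 in RNA, and 202 and 214 of 15022 in footprints. In TE it called 213 of 14955. These totals include genes to which DESeq2 gave no adjusted p, while the 71, 25 and 39 do not, so the shares are not comparable. With the tumour as a block, edgeR called 5 of 49 in TE, a share near the 9.14% it called among all genes (3.14% higher and 6% lower): the type I receptor TGFBR1 and the BMP target ID3 rose, and the ubiquitin ligase WWP1, STRAP and TSC22D1 fell. Over all of the 101 genes that edgeR tested (80, 49 and 49), the median log2 change was −0.01 in RNA, −0.09 in footprints and −0.07 in TE. The genes that were called lay among ligands, receptors, an inhibitor, an activation gene and target genes. Of the pathway genes detailed by role below, BMPR2, STRAP, TSC22D1 and EP300 have a TE FDR under 0.05 in the authors' deposited table. Their log2 estimates there are −0.95, −0.38, −0.46 and −0.38, with FDRs of 0.027, 1.3e-06, 0.0036 and 0.0056. For the others detailed that have an estimate there, the FDR runs from 0.10 (BMPR1B) to 0.99 (CDKN1A).

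Among 23 ligands, BMP7, a BMP of kidney and epithelia, fell in RNA from 12 ± 3.38 to 5.39 ± 2.06 CPM, a log2 change of −1.17 ± 0.30 (adjusted p = 0.048), with 0 footprints in all libraries. BMP2 RNA was 21.6 ± 3.46 and 29.1 ± 2.45 CPM, a difference of 0.44 that did not pass (adjusted p = 0.17). GDF15, a stress-induced ligand of the family, had a footprint change of −0.52 ± 0.34 (adjusted p = 0.40). Of the ligands only GDF11 and GDF15 had enough footprints to be tested.

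Among 14 receptors and co-receptors, ACVR2B, a type II receptor that binds activin and GDF11, fell in RNA. Its RNA was 72.6, 41.6 and 65.1 CPM in vehicle and 33.3, 23.5 and 32.3 CPM in zotatifin tumours, a log2 change of −1 ± 0.18 (adjusted p = 0.0088), and the groups do not overlap. ACVR2B had 6 and 4 footprint counts, too few to compare. BMPR2, the type II receptor for BMPs, fell in footprints from 17.7, 13.3 and 11.4 CPM to 5.21, 7.36 and 6.47 CPM, a log2 change of −1.18 ± 0.33 (adjusted p = 0.029), without overlap. BMPR2 RNA differed by −0.30 ± 0.14 (adjusted p = 0.25) and its TE by −0.90 ± 0.37 (adjusted p = 0.21). BMPR1B, a type I BMP receptor, had RNA of 56.9 ± 6.11 and 58.9 ± 14.3 CPM.

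SMAD9, the third BMP-branch SMAD, had RNA of 16.9 ± 3.9 and 16.8 ± 2.16 CPM and was not tested in footprints. Among 22 inhibitors, STRAP, a WD-repeat protein that binds the TGF-beta receptors and SMAD7, fell in footprints from 413 ± 11.8 to 328 ± 13.1 CPM, a change of −0.34 ± 0.10 (adjusted p = 0.039). STRAP RNA was 187 ± 13.7 and 202 ± 10.3 CPM. Its TE difference of −0.45 ± 0.15 did not pass (adjusted p = 0.12) and passed with the tumour as a block (adjusted p = 0.0065), with a range of 0.0065 to 0.34 over all alternatives. PMEPA1, a target gene whose product holds back receptor-activated SMADs, had RNA of 320 ± 51.7 and 372 ± 44.2 CPM and footprints of 52.7 ± 17.3 and 53.2 ± 8.47 CPM.

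Among 13 genes of the latent complex and its activation, THBS1, which releases active TGF-beta from its latent form, fell in RNA from 81.9 ± 14.2 to 46.2 ± 3.59 CPM, a change of −0.83 ± 0.14 (adjusted p = 0.0055). Its footprints were 64.9, 48.3 and 108 CPM against 55.5, 29.4 and 31.7 CPM, overlapping, a difference of −0.90 ± 0.40 (adjusted p = 0.25). This passed with no low-count filter (adjusted p = 0.0012) and without vehicle library 2 (−1.13, adjusted p = 0.0019), and over all alternatives the adjusted p ran from 0.0012 to 0.56. LTBP3, which holds latent TGF-beta, had RNA of 58.9 ± 5.46 and 62.6 ± 3.54 CPM. Of 14 adaptors and cofactors, edgeR called 0 of 13 tested in RNA and 0 of 12 in footprints (3 and 1 at an unadjusted p under 0.05), and DESeq2 0 of 13 and 0 of 9. Over all genes edgeR called 1.72% and 7.14%, so counts of 0 in a list this short say little. The coactivators EP300 and CREBBP differed by 0.28 and −0.14 in RNA.

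Among 19 target genes, TGFBI, a matrix protein named for its induction by TGF-beta, fell by 1.42 ± 0.33 in RNA (adjusted p = 0.032) and by 1.40 ± 0.42 in footprints (adjusted p = 0.039). ID2, a target of the BMP branch, fell in footprints from 80.3 ± 5.75 to 52.7 ± 11.3 CPM, a change of −0.62 ± 0.16 (adjusted p = 0.015), with RNA that differed by −0.32 ± 0.16 (adjusted p = 0.29). TSC22D1 had a TE difference of −0.46 ± 0.18 (adjusted p = 0.20) that passed with the tumour as a block (adjusted p = 0.015, range 0.015 to 0.39). CDKN1A, the cell-cycle inhibitor that TGF-beta induces in epithelium, had RNA of 62.5 ± 5.58 and 58.7 ± 0.707 CPM. Of the 19 targets, 0 of 16 tested in RNA and 0 of 13 in footprints rose in edgeR, with 1 higher in each at an unadjusted p under 0.05, and DESeq2 found 0 rises among 15 and 6. Over all genes edgeR called 0.808% higher in RNA and 3.22% in footprints, so these counts of 0 say little.

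**Figure D4:**
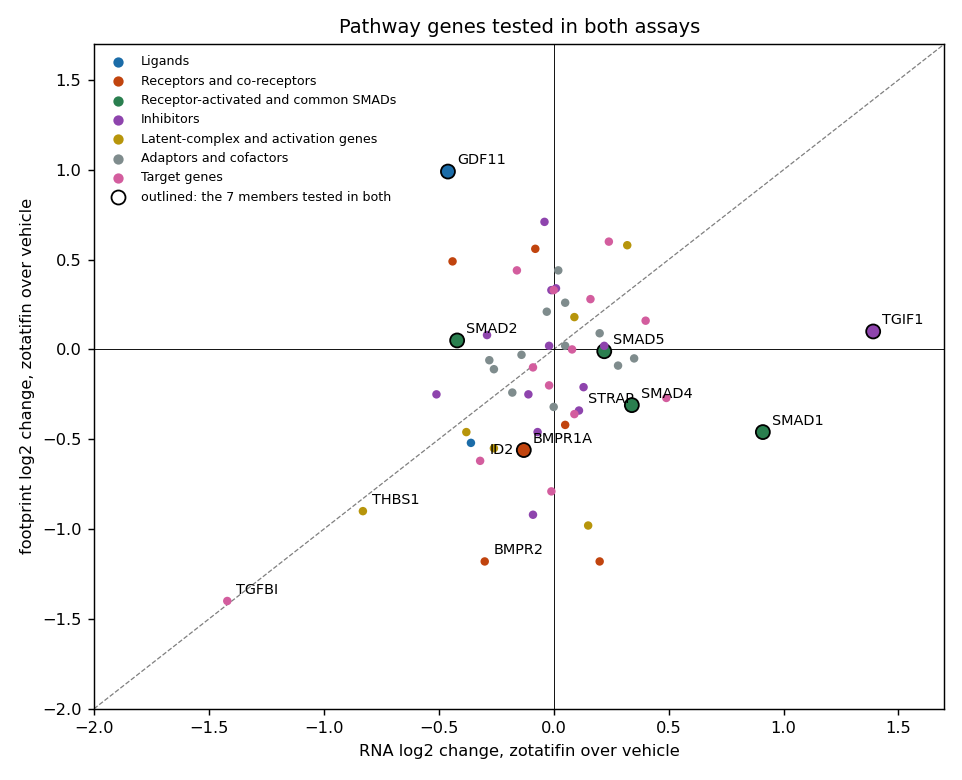
RNA change against footprint change, log2 of zotatifin over vehicle, for the pathway genes tested in both assays, coloured by role, with equal change on the dashed line and the 7 genes of the set outlined in black. TGIF1 and SMAD1 lie far right of the line, GDF11 above it at −0.46 and 0.99, and TGFBI near the line at −1.42 and −1.40.

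The calls of these pathway genes changed with single libraries, while the changes kept their sign. With 1 library left out, the RNA change of BMP7 ran from −1.48 to −0.92, that of ACVR2B from −1.2 to −0.85, that of THBS1 from −0.94 to −0.69 and that of TGFBI from −1.68 to −1.14. The footprint change of BMPR2 ran from −1.3 to −0.98, that of STRAP from −0.36 to −0.30, that of ID2 from −0.71 to −0.46 and that of TGFBI from −2.01 to −0.89. The RNA calls of BMP7, ACVR2B, THBS1 and TGFBI were lost when vehicle 1 or vehicle 3 was set aside, and those of BMP7 and TGFBI also for zotatifin 1 or zotatifin 3. BMP7 lost its call with RLE scaling as well (adjusted p = 0.052). The footprint call of BMPR2 was lost when vehicle 1, zotatifin 1 or zotatifin 3 was set aside, and that of ID2 when vehicle 1 or zotatifin 1 was. Of the fits with 1 library left out, STRAP passed only in the one that lacked zotatifin 2. TGFBI lost its footprint call when vehicle 1, vehicle 3, zotatifin 2 or zotatifin 3 was set aside. Over these alternatives the adjusted p reached 0.21 for BMP7, 0.13 for ACVR2B, 0.068 for THBS1, 0.19 for BMPR2, 0.13 for ID2, 0.14 for STRAP, and 0.19 (RNA) and 0.24 (footprints) for TGFBI.

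Markers of other cell types moved in the same libraries. Over all genes tested 0.907% were called lower in RNA and 3.92% in footprints. Of 12 fibroblast and matrix markers, 4 of 7 tested fell in RNA and 5 of 8 in footprints, and their summed RNA was 333 to 667 CPM in vehicle and 142 to 238 CPM in zotatifin tumours, with footprints of 704 to 1190 CPM and 256 to 476 CPM. LUM went the other way in RNA, by 0.47, and was not called (adjusted p = 0.68). Of 8 myeloid markers, 1 of 3 fell in RNA and 2 of 4 in footprints, with summed RNA of 16.2 to 54.8 CPM and 10.8 to 20.6 CPM. TYROBP had 0 RNA counts and CD14 0 footprints in all libraries. Of 5 endothelial markers, 0 of 2 tested in RNA were called, and their summed RNA was 5.42 to 12.8 CPM and 3.04 to 5.76 CPM. Of 5 red blood cell markers, 0 of 4 tested fell in RNA and 2 of 5 in footprints (HBE1 and HBG1), with summed footprints of 127 to 326 CPM and 139 to 172 CPM. HBA1, HBA2 and HBB footprints differed by 0.14, 0.15 and −1.57 and were not called. The part of these in the falls of BMP7, ACVR2B, BMPR2, STRAP, THBS1, ID2 and TGFBI was not tested, and fewer cells of a type cannot be told apart from less RNA per cell. TGFB3, SMAD1 and TGIF1, chosen for more RNA with zotatifin, had higher RNA in the same tumours in which the fibroblast sum was lower. Any gene that rose in every treated tumour would show this, and a link was not tested.

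The genes whose pattern was most like each of the 4 that prompted the choice were found by Pearson correlation of log2 CPM over the 12 libraries, with each assay centred on its own mean, among 4889 genes that averaged 50 counts or more per assay. For TGFB3 they were UBE2H (0.931), RECQL (0.928) and HSF2 (0.924), and for TGIF1 POLR2C (0.893), COQ3 (0.870) and ELP6 (0.867). For SMAD1 they were ARMCX3 (0.925), C18orf25 (0.921) and CUTC (0.910), and for GDF11 SF3B4 (0.946), CBX6 (0.934) and ATMIN (0.921). The footprint and RNA points come from the same tumours and differ in depth, TGFB3 has few footprints, and these correlations are descriptions.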

How the data were processed

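Ribosome footprints and RNA were measured in 12 libraries of 6 tumours. The authors deposited raw counts per transcript for both assays. The authors' deposited RNA results hold a mean signal of scaled counts, a log2 fold change with its error, a Wald score and p-values. The authors' deposited footprint results hold an estimate, read as a natural log change of TE, with an FDR. Regressed on the log2 changes of 1566 well-counted genes (mean above 200), it had a weight of 0.665 for footprints and −0.666 for RNA, near the natural log of 2 (0.693), by which it was divided. Per the submitters' processing notes, cutadapt 2.3, UMI-tools, Bowtie2 2.3.5 and DESeq2 were used on hg38. No source used here gives a step that removes mouse reads, the strand setting or the counted region, so reads of antisense or overlapping genes may be shared.

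Groups were taken from titles and column names. In 6 of 12 samples the labelled treatment contradicts the title, and the columns' code number was taken for zotatifin's development code. Fits used edgeR 4.0.16 in R 4.3.3: filterByExpr (minimum count 10, minimum total 15), TMM, and the robust quasi-likelihood test of zotatifin against vehicle within each assay. TE was the interaction of assay and treatment over 12 libraries, with TMM within assay. Log2 CPM used a prior count of 2. Intervals of footprint ratios are exact, at the 95% level, and cover counting error only. DESeq2 1.42.0, RLE scaling, no filter, a mean of at least 50 counts, blocks and leaving out each library were alternatives. Named pathway genes were those called in any comparison and the 2 with the most RNA in each role. Members and lists were chosen with earlier results of these data known. Footprint and RNA libraries of the same tumour correlated at 0.217 to 0.44 after group means were removed (6 pairs, 4889 genes) and others at −0.381 to 0.119, so a tumour block was fitted for TE as an alternative. With means of 3 libraries removed, a positive value for 1 pairing forces lower values for the others, so the ranges are not independent. TE errors and adjusted p given without mention of that block treat the 12 libraries as independent. Of 19027 symbols, 18953 matched RefSeq, from which positions on GRCh38.p14 were taken. The scripts were tested on simulated counts.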

Additional observations from a re-analysis of the deposited data

How the results depend on the processing

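The count of genes called moved most. RNA calls numbered 225, and 624 with no filter, 527 with the replicate number as a block, and 11 to 396 with 1 library left out. RNA calls among the 9 genes went from 3 to 5 with no filter, to 5 with the replicate block, and both settings add falls of GDF11 and SMAD2, and to 1 to 4 with 1 library left out. Footprint calls numbered 681, 416 with DESeq2, and 185 to 726 with 1 library left out. TE calls numbered 193, 864 with the tumour block, and 60 to 146 with 1 tumour left out. TE calls among the set went from 2 to 4 with the tumour block (TGIF1 and SMAD4 added, where 9.14% of all genes were called), to 1 where a mean of 50 counts was asked in each assay, which leaves 4 genes tested, and to 1 to 2 with 1 tumour left out. With no filter 3 of 9 were called in TE (1 higher, 2 lower), where 45 of 14955 genes were called higher and 170 lower. The call added there is a fall of TGFB3 or SMAD3, both of which have few footprints. Vehicle and zotatifin tumours of 1 number correlated at −0.0947 to 0.181 and those of other numbers at −0.196 to 0.169. In RNA 3 of 6 and in footprints 2 of 6 libraries were closest to their own number. No pairing of treatments by number was seen, and so few libraries cannot exclude one. The replicate block is given for how it moves the counts. With it, THBS1 also passed in footprints (−0.94, adjusted p = 0.032).

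Changes near 0 turned sign. SMAD9 RNA was −0.005 and CDKN1A TE 0.002 with RLE scaling, and TGFBI TE −0.016 with no filter. With 1 library left out, RNA ran from −0.066 to 0.24 for BMPR1B, −0.12 to 0.21 for SMAD9, −0.57 to 0.068 for GDF15 and −0.25 to 0.036 for CREBBP. Footprints ran from −0.24 to 0.23 for PMEPA1, −0.33 to 0.041 for EP300, −0.04 to 0.16 for SMAD2, −0.19 to 0.032 for CDKN1A, −0.002 to 0.22 for TGIF1, −0.091 to 0.084 for SMAD5 and −0.16 to 0.11 for CREBBP. TE ran from −0.52 to 0.23 for TGFBI, −0.10 to 0.33 for CREBBP, −0.084 to 0.045 for CDKN1A, −0.38 to 0.15 for THBS1, −0.40 to 0.089 for PMEPA1, −0.072 to 0.22 for LTBP3 and −0.34 to 0.069 for GDF15. The cause was not tested. Footprint depth limits TGFB3, SMAD3, BMP2 and ACVR2B, which were not tested there.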

Other observations

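GREM1, a secreted antagonist of BMPs, had RNA counts of 790, 500 and 1516 in vehicle and 702, 501 and 1034 in zotatifin tumours but 0 footprints in all 6 footprint libraries. Over their 8987096 counts, a count of 0 allows up to 0.334 CPM (3 counts). Of 3223 genes with a mean of at least 500 RNA counts, 7 had 0 footprints: GREM1, MAB21L3, MTRNR2L10, MTRNR2L4, PRRG3, SHISA9 and SULT1B1. These genes were chosen after their values were seen, and the cause was not tested.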
